A study of Homo sapiens with 15 samples.

Results

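Decitabine was present in 6 of the 12 arrays made from CP70, an ovarian cancer cell line that resists cisplatin, and this account compares these 6 arrays with the 6 CP70 arrays that had no decitabine. The 6 arrays with decitabine were 3 of CP70 given decitabine together with PXD101 and 3 of CP70 given decitabine alone. The 6 arrays without it were 3 of CP70 given PXD101 alone and 3 of untreated CP70. The number of arrays with PXD101 was thus balanced, with 3 on each side, but the duration of PXD101 was not. Decitabine was given at 0.1 µM for 48 h and PXD101 at 0.1 µM, for the second 24 h of decitabine in the combined treatment and for 48 h alone, and all treated cultures then had 96 h without drug before harvest. All 15 arrays of the series were Affymetrix expression arrays with biological triplicates per the design text. The other 3, of the cisplatin-sensitive line A2780, entered no test here and are quoted only as levels. The sources used here do not say whether the untreated cells received a vehicle or were kept in culture for the same time. RNA came from whole cultures, so that more cells with a transcript and more transcript per cell cannot be told apart.

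Decitabine is a cytidine analog that is built into DNA and traps the DNA methyltransferases, so that methylation is lost as cells divide. Genes whose promoters are methylated in most somatic cells, among them the cancer-testis antigens of the X chromosome and genes of the germ line, are known for their response to it. Loss of methylation is also known to let cells transcribe repeats whose RNA triggers interferon signalling. PXD101, also called belinostat, inhibits histone deacetylases, which keep chromatin compact.

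Levels are log2 values of 1 probe set for each of 19775 genes. A gene was called when its adjusted p was under 0.05 in limma (Benjamini-Hochberg over all genes), with a change counted as decitabine minus no decitabine. Arrays of the same group correlated at 0.994 to 0.997 over probe sets once 2 arrays were set aside. CP70 replicate 2 correlated at 0.984 to 0.986 with the other untreated CP70 arrays and at 0.995 to 0.996 with the PXD101 arrays, and decitabine replicate 3 correlated at 0.991 with the other decitabine arrays. CP70 replicate 2 and the arrays it resembled were all on the side without decitabine. The 3' actin probe set exceeded the 5' one by 0.342 to 0.787 log2 with decitabine (mean 0.493 ± 0.153, SD, n = 6) and by 0.384 to 0.859 without it (0.585 ± 0.166, SD, n = 6). The groups overlapped in this sign of RNA quality, with p = 0.351 in an exact two-sided permutation test. For GAPDH the same difference was -0.055 to 0.187 with decitabine and -0.044 to 0.025 without it (exact permutation p = 0.801). Decitabine replicate 3 had the highest value with decitabine for both, 0.787 for actin and 0.187 for GAPDH. Without decitabine, actin gave 0.63 to 0.86 on untreated CP70 arrays and 0.38 to 0.51 on PXD101 arrays. The part of RNA quality in the results was not tested. Of 12 markers of ovarian carcinoma lines, the transcription factor PAX8 lay at 7.09 to 7.48 with decitabine and at 6.97 to 7.39 without it, while WT1, MUC16, SOX17 and EMX2 stayed below 4.34 log2 on all 12 arrays. That level is the lower quartile of all gene values, and changes that involve values under it may be understated. These markers were named after their values were seen.

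Decitabine raised 1477 genes, or 7.47% of those tested, and lowered 1026, or 5.19%, so that 12.7% were called in either direction. The values of the 6 arrays with and the 6 without it did not overlap for 1395 genes, of which 916 (4.63% of all genes) were higher with decitabine and 479 (2.42%) lower. Both criteria were met by 1329 genes (6.72%), which were 889 rises (4.5%) and 440 falls (2.23%). The 2 rules parted in both directions: 588 called rises and 586 called falls had overlapping arrays, and 27 higher and 39 lower genes did not overlap without being called. Counts of gene lists below are to be read against the shares over all genes. These are 7.47% and 5.19% for called rises and falls, and 4.63% and 2.42% without overlap. Large changes went upward. A change of at least 2-fold was called for 315 rises (1.59%) and 23 falls (0.116%), and one of at least 4-fold for 91 rises (0.46%) and no fall (0.0%). Without CP70 replicate 2 the counts were 2278 rises and 1593 falls, and without replicate 2 of the combined treatment there were 652 falls. How the calls divided into rises and falls depended on the scaling of the arrays. Rises were 59.0% of the calls on the deposited values, 47.9% after quantile normalization and 33.4% after each array was centred on its median, which shifted all changes by 0.0856 log2. Small changes are therefore given relative to the deposited scale. For genes with several probe sets the size of a change depended on the probe set used. As the mean of all probe sets, the call was kept but the change was more than 1.5 times smaller for ATF5 (0.55), COL1A1 (0.43), CXCL2 (0.35), DKK3 (0.53), DPPA4 (0.76), ERCC1 (0.26), IFIH1 (0.93), KRT19 (1.20), MT1G (0.51), PEG3 (1.19), PHLDA2 (0.70), PLK3 (0.26), TNFAIP2 (0.59), TXNRD1 (0.31) and XAF1 (1.44), which rose. The same held for GABRA2 (-0.48), HDAC4 (-0.52), MMP16 (-0.54) and UST (-0.62), which fell, and all these genes are described below by 1 probe set each.

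**Figure D1:**
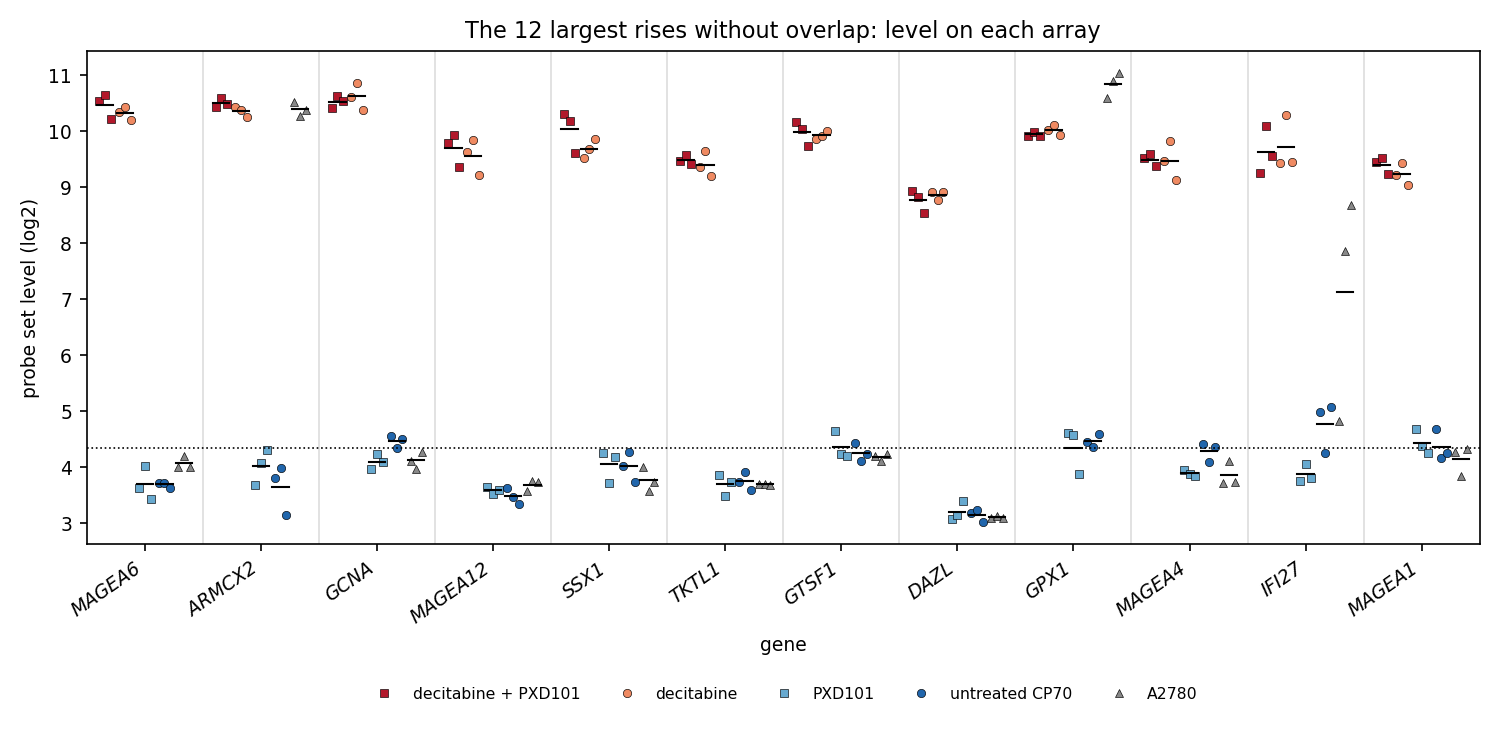
Level (log2) of the 12 genes with the largest rise among called genes without overlap, on every array; within each gene the groups run from decitabine with PXD101, decitabine, PXD101 and untreated CP70 to A2780, points are arrays, bars are means of 3 arrays and the dotted line is the lower quartile of all gene values. All 6 decitabine arrays of each gene lie above 8.5 and all 6 others below 5.1, while ARMCX2 and GPX1 are high on all 3 A2780 arrays and IFI27 on 2 of them (7.87 and 8.68, against 4.83 on the other).

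Of the 12 largest rises 6 were in cancer-testis antigens of the X chromosome, proteins normally made in testis and recognised by T cells when tumours express them. Of 29 measured genes of this class, 22 rose and none fell, 21 of them without overlap, and their median change was 1.68 log2 (0.01 over all genes). MAGEA6, a MAGE protein that works with a ubiquitin ligase, lay at 10.54, 10.64 and 10.22 log2 with decitabine and PXD101 and at 10.34, 10.42 and 10.21 with decitabine alone. On the side without decitabine it lay at 3.63, 4.03 and 3.43 with PXD101 and at 3.71, 3.72 and 3.63 in untreated CP70. Every array with decitabine was thus far above every array without it, and the difference was 6.70 ± 0.10 (SE; limma adjusted p = 5.56e-13), or 104-fold. MAGEA12 rose by 6.09 ± 0.12, SSX1, a transcriptional repressor of testis, by 5.83 ± 0.14, MAGEA4 by 5.39 ± 0.11 and MAGEA1 by 4.92 ± 0.11. TKTL1, a transketolase-like enzyme counted with this list, had a lowest, median and highest level of 9.19, 9.44 and 9.64 with decitabine, against 3.49, 3.73 and 3.91 without it. Its change of 5.72 ± 0.09 was nearly the same beside PXD101 (5.78) and without it (5.65). MAGE genes are close copies of each other, so a probe set may also detect relatives of the gene it is named for, and the MAGEA values are uncertain in that respect. The 250 bases before the start of MAGEA6 show this closeness, since all 250 are identical upstream of MAGEA3, whose probe set carried the names of both genes and was not used. They are printed here with CpG dinucleotides, the sites that DNA methyltransferases act on, in capitals (chrX:152769690-152769939, minus strand, GRCh38.p14, RefSeq). These bases hold 15 CpG. The median over 27305 promoter windows of this length was 11 (quartiles 3 and 23). Over the 15382 tested genes that had such a window it was 18 (quartiles 7 and 26).
MAGEA6: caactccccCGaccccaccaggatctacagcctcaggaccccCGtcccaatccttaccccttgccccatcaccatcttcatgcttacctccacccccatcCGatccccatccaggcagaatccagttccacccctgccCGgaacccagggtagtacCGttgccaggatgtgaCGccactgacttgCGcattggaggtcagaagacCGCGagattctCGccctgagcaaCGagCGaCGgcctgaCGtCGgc

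Germ cell genes followed with 23 of 49 higher and 2 lower, where 7.47% and 5.19% of all genes were called. GCNA, a nuclear protein of germ cells that is encoded on the X chromosome, had the third largest rise of all genes, with a lowest, median and highest level of 10.38, 10.58 and 10.86 with decitabine and 3.97, 4.29 and 4.56 without it. DAZL, an RNA-binding protein needed for germ cell development, lay at 8.54, 8.87 and 8.94 with decitabine, against 3.02, 3.17 and 3.39 without it, a rise of 5.64 ± 0.09 (SE). GTSF1, a cofactor of piRNA-guided silencing, also rose by 5.64 (± 0.10), and MAEL, another piRNA pathway protein, rose by 4.77 ± 0.08. In A2780 the means of these 4 genes were 3.10 to 4.18 log2. DAZL is encoded on an autosome, and the 250 bases before its start hold 28 CpG, again in capitals (chr3:16605424-16605673, minus strand, GRCh38.p14, RefSeq).
DAZL: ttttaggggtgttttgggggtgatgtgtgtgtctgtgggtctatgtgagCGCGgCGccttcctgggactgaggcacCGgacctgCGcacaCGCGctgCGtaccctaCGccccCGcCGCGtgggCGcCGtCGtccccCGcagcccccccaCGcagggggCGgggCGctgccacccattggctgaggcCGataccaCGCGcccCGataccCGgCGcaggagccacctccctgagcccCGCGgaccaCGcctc

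ARMCX2 and GPX1 had large rises of another kind, since both genes were high in A2780. ARMCX2, an armadillo repeat protein encoded in Xq22, lay at 10.43, 10.59 and 10.49 log2 with decitabine and PXD101 and at 10.43, 10.38 and 10.26 with decitabine alone. It lay at 3.68, 4.07 and 4.31 with PXD101 and at 3.80, 3.98 and 3.15 in untreated CP70, so that the change was 6.60 ± 0.14 (SE), or 96.9-fold, and the mean in A2780 was 10.39. GPX1, the glutathione peroxidase of the cytosol, had a lowest, median and highest level of 9.91, 9.95 and 10.10 with decitabine, against 3.87, 4.50 and 4.60 without it. It rose by 5.57 ± 0.11 and averaged 10.84 in A2780. Both genes thus stood within 1 log2 of their A2780 mean with decitabine. This differed between genes: BEX1, a neighbour of the ARMCX genes that acts in signalling, rose by 3.08 ± 0.11 to a median of 8.11 with decitabine, against 5.05 without it and a mean of 12.66 in A2780. Among 20 ARMCX, BEX and TCEAL genes of Xq22, 8 rose and 3 fell, all without overlap, and ARMCX3 (2.68 ± 0.18) and BEX5 (2.41 ± 0.09) were among the rises. Among 40 thiol and platinum handling genes, 6 rose (15%, against 7.47% of all genes) and 3 fell (7.5%, against 5.19%), with 7 falls after median centring and 9 rises and 6 falls without CP70 replicates 1 and 3. Besides GPX1 these included the secreted peroxidase GPX3 (1.02 ± 0.11) and the thioredoxin reductase TXNRD1 (0.66 ± 0.10), with a fall of the glutathione transferase GSTA4 (-0.57 ± 0.08). The 250 bases before ARMCX2 (chrX:101659851-101660100) and GPX1 (chr3:49358354-49358603), both on the minus strand of GRCh38.p14 from RefSeq, are set side by side because these genes changed alike: ARMCX2 has 7 CpG and GPX1 20, in capitals.
ARMCX2: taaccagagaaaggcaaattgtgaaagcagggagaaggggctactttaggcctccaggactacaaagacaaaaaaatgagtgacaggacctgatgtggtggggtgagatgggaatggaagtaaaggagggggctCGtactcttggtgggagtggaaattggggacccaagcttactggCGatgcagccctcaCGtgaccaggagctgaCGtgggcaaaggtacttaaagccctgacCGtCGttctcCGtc
GPX1: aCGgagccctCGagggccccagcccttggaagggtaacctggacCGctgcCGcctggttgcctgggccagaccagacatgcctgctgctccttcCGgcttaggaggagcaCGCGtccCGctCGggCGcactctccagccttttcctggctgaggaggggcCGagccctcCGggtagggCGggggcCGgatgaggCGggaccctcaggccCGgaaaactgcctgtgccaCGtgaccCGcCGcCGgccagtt

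Genes induced by interferon rose together. Of 55 measured interferon-stimulated genes, 49 rose and none fell, 40 without overlap, and all 55 had a change above 0 with a median of 0.71 log2. IFI27, a mitochondrial protein and a common marker of interferon signalling, lay at 9.24, 10.09 and 9.56 with decitabine and PXD101 and at 9.42, 10.28 and 9.45 with decitabine alone. Levels were 3.75, 4.06 and 3.81 with PXD101 and 4.98, 4.25 and 5.07 in untreated CP70, which left a gap of over 4 log2 between the sides. The rise was 5.36 ± 0.19 (SE). XAF1, a pro-apoptotic antagonist of XIAP, rose by 2.76 ± 0.17, OAS1, which makes the messenger that activates RNase L, by 2.39 ± 0.14, and MX1, a GTPase that blocks viruses, by 2.15 ± 0.10. The summed picture was the same on every array: the median of the list lay at 8.14 to 8.56 with decitabine and at 7.01 to 7.38 without it. Among 38 sensors and signalling factors of the interferon pathway, 14 rose (36.8%, against 7.47% of all genes). Of the same 38, 2 fell (5.26%, against 5.19%), with 4 falls after median centring. The rises included the cytosolic RNA sensors RIGI (2.20 ± 0.17) and IFIH1 (1.90 ± 0.17), and the factors IRF9 (1.39 ± 0.15), which binds the promoters of interferon-stimulated genes, and IRF7 (1.32 ± 0.10), which drives interferon genes. The 250 bases before IFI27 (chr14:94110486-94110735, plus strand, GRCh38.p14, RefSeq) hold 2 matches, in capitals, to a pair of GAAA words with 2 bases of any kind between them, read on either strand, letters that IRF proteins are known to bind. Such a match was present in 3.07% of the 27305 promoter windows and in 2.48% of those of tested genes.
IFI27: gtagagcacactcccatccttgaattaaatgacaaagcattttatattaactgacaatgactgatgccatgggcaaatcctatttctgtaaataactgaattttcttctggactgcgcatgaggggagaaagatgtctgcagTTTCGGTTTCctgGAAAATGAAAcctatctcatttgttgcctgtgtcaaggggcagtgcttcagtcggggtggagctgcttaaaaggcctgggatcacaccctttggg

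Antigen processing and presentation genes rose in 13 of 34 cases (38.2%, against 7.47% of all genes) with no fall, 7 without overlap. PSMB8, a catalytic subunit of the immunoproteasome, had a lowest, median and highest level of 6.35, 6.56 and 6.78 with decitabine, against 3.93, 4.16 and 4.30 without it, a rise of 2.42 ± 0.10 (SE). HLA-DMA, a chain of the protein that helps peptides onto class II molecules, rose by 0.92 ± 0.15, TAP1, a transporter of peptides for class I molecules, by 0.60 ± 0.09 (limma adjusted p = 0.000774, and 0.0787 when all 15 arrays were fitted) and the stress ligand MICB by 0.50 ± 0.08. HLA-DMA only just met the criterion of no overlap, with 6.98 as both the lowest value with decitabine and the highest without it, and beside PXD101 alone its change of 0.54 was not called (limma adjusted p = 0.149). Of 39 measured chemokines, cytokines and other targets of NF-kB, 23 rose (59.0%), 15 of them free of overlap, and none fell. CXCL8, which attracts neutrophils, rose by 2.51 ± 0.21 and was at 6.09, 6.70 and 7.58 with decitabine, against 3.65, 4.28 and 4.65 without it. CCL5, a T cell chemokine, rose by 1.93 ± 0.11, TNFAIP2 by 1.17 ± 0.10 and the neutrophil chemokine CXCL2 by 0.87 ± 0.08.

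Metallothioneins, small proteins that bind zinc, copper and cadmium through cysteines, rose in 7 of 9 cases (77.8%, against 7.47% of all genes). All 7 were without overlap, and the median change of the 9 was 1.49 log2. MT2A lay at 11.95, 12.14 and 11.76 with decitabine and PXD101 and at 11.62, 11.82 and 12.04 with decitabine alone. It lay at 10.66, 10.70 and 10.79 with PXD101 and at 9.70, 10.29 and 9.76 in untreated CP70. The sides did not overlap, but the PXD101 arrays lay above the untreated ones, and the decitabine change was 1.23 beside PXD101 and 1.91 without it (interaction adjusted p = 0.264 in limma). MT1X rose by 1.75 ± 0.14 (SE), MT1E by 1.60 ± 0.11, MT1F by 1.52 ± 0.10 and MT1G by 1.13 ± 0.08. These genes lie together on chromosome 16 and are near copies, so that their probe sets may share signal. The 250 bases before MT2A (chr16:56608334-56608583, plus strand, GRCh38.p14, RefSeq) hold 7 matches, in capitals, to TGCACNC or TGCGCNC on either strand, counted with overlaps. These are the core letters bound by the zinc-dependent factor MTF1. At least 1 match was held by 24.7% of all promoter windows and by 29.7% of those of tested genes.
MT2A: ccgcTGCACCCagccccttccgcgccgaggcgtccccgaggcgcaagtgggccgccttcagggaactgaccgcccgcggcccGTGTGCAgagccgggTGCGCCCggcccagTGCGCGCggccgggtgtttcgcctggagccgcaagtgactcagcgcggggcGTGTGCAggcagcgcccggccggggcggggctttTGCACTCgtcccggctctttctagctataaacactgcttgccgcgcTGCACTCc

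Decitabine raised 11 of 22 genes that are known to respond to deacetylase inhibitors (50.0%, against 7.47% of all genes), and none of them fell. Without CP70 replicate 2, 15 rose and 1 fell. CRIP1, a small LIM domain protein, had the largest named change of this list at 3.98 ± 0.14 (SE), with 8.57, 8.87 and 9.29 with decitabine, against 4.68, 4.96 and 5.28 without it. MT1X, MT1E and MT2A are members of both lists, so the counts of these lists are not independent. A check of promoter letters over whole gene classes was void, because only 692 of the 889 rises without overlap (77.8%) and 42 of the 55 interferon-stimulated genes (76.4%) had a promoter in the table used here.

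**Figure D2:**
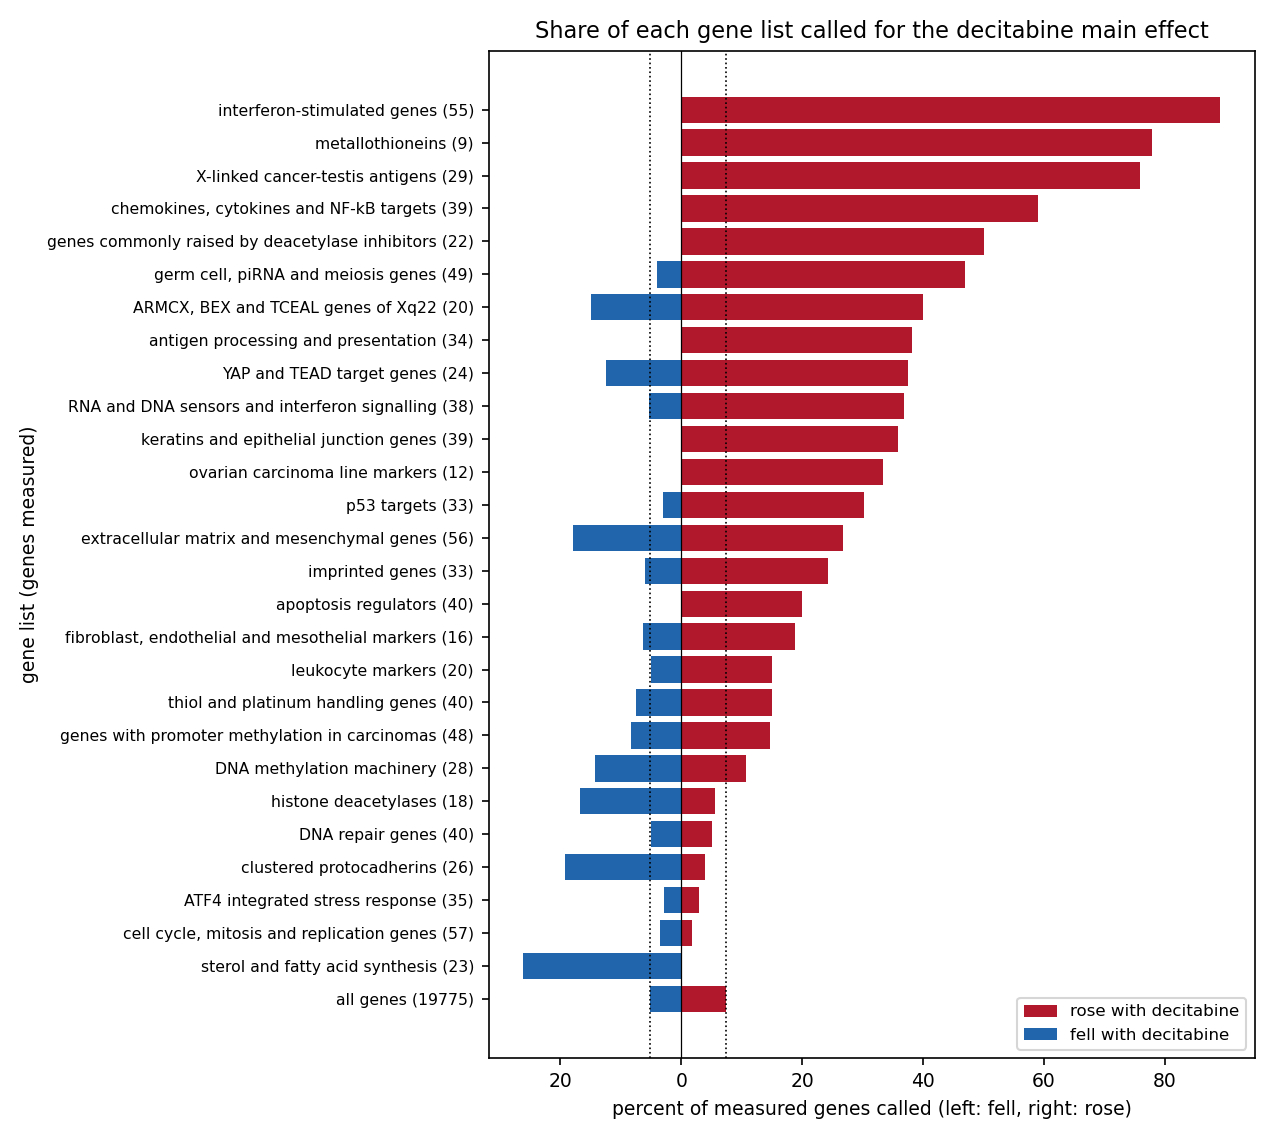
Percent of the measured genes of each list that were called higher (red, right) or lower (blue, left) with decitabine by limma, with the number measured in brackets, all genes at the bottom and the shares over all genes (7.47% and 5.19%) as dotted lines. Interferon-stimulated genes have the highest share of rises (89.1%), and sterol and fatty acid synthesis genes the highest share of falls (26.1%).

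Among keratins and epithelial junction genes 14 of 39 rose (35.9%) and none fell, although 1 fell after median centring and 1 without CP70 replicate 2. The median change of the 39 was 0.14 log2. SFN, a 14-3-3 protein of epithelia, rose by 2.74 ± 0.10 (SE) and CLDN7, a tight junction protein, by 2.30 ± 0.17. The keratins of simple epithelia KRT19 and KRT8 rose by 2.40 ± 0.15 and 1.43 ± 0.11. Among the 12 ovarian carcinoma line markers, 4 rose (33.3%) and none fell. The rises were KRT8, its partner KRT18 (1.28 ± 0.12), the surface protein CD24 (1.27 ± 0.16) and the adhesion molecule EPCAM (0.99 ± 0.10). The keratin KRT7 of this list was not called, nor were the remaining markers. EPCAM lay at 7.86, 7.97 and 8.21 with decitabine, against 6.40, 7.10 and 7.32 without it. Markers of other cell types were also measured, and their part in the results was not tested. Of 20 leukocyte markers 3 rose (15%, against 7.47% of all genes) and 1 fell (5.0%, against 5.19%), and 5 of the 20, including PTPRC (chosen after its values were seen), the CD45 antigen of all leukocytes, stayed below 4.34 log2 on all 12 arrays. The list median was 4.46 to 4.71 with decitabine and 4.45 to 4.84 without it. TYROBP, an adaptor of immune receptors, rose by 1.26 ± 0.12. Of 16 fibroblast, endothelial and mesothelial markers 3 rose (18.8%) and 1 fell (6.25%), with list medians of 5.26 to 5.42 with decitabine and 5.18 to 5.33 without it, and 3 of the 16 stayed below 4.34 log2 on all 12 arrays. After median centring or without CP70 replicates 1 and 3, 1 of these 16 rose. The endothelial receptor ENG (0.74 ± 0.11) was among the rises, and the collagen chain COL3A1 fell by 0.60 ± 0.07.

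Of 33 imprinted genes 8 rose (24.2%, against 7.47% of all genes) and 2 fell (6.06%, against 5.19%). Without CP70 replicate 2 the falls were 5 and after median centring 4. MEST, which is expressed from the paternal allele, lay at 6.48, 6.83 and 7.13 log2 with decitabine, against 4.04, 4.17 and 4.28 without it. The rise of 2.64 ± 0.12 (SE) left every CP70 array far below the A2780 mean of 13.29. PEG3, another paternally expressed gene, rose by 1.90 ± 0.13 and PHLDA2, a growth inhibitor expressed from the maternal allele, by 1.86 ± 0.09. Genes whose promoter methylation has been described in ovarian or other carcinomas rose in 7 of 48 cases (14.6%) and fell in 4 (8.33%), where 7.47% and 5.19% of all genes were called; without CP70 replicates 1 and 3, 13 rose and 5 fell, and after median centring 7 rose and 8 fell. The rises included PYCARD, the inflammasome adaptor ASC, at 2.02 ± 0.12, TFPI2, a protease inhibitor, at 1.46 ± 0.19 and DKK3, a relative of WNT antagonists, at 1.28 ± 0.11.

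Targets of p53 rose in 10 of 33 cases (30.3%, against 7.47% of all genes) and fell in 1 (3.03%, against 5.19%). CDKN1A, the inhibitor p21 of cyclin-dependent kinases, lay at 10.33, 10.59 and 10.74 with decitabine, against 8.65, 9.07 and 9.95 without it, and rose by 1.31 ± 0.14 (SE). IGFBP3, which binds insulin-like growth factors, rose by 1.27 ± 0.14, the kinase PLK3 by 0.91 ± 0.08 and TIGAR, a regulator of glycolysis, by 0.78 ± 0.08. Without CP70 replicates 1 and 3, 17 p53 targets rose. Apoptosis regulators rose in 8 of 40 cases and none fell on the deposited scale, but 3 fell after median centring, 3 without CP70 replicate 2 and 4 without CP70 replicates 1 and 3. TNFSF10, the death ligand TRAIL, rose by 1.14 ± 0.15, its receptor TNFRSF10A by 0.58 ± 0.11, BIK, an activator of apoptosis, by 0.88 ± 0.12 and BAK1, which permeabilises mitochondria, by 0.47 ± 0.06.

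Cell cycle genes gave no stable count. Of 57 measured, 1 rose and 2 fell, below the shares over all genes, but 13 rose and 3 fell without CP70 replicate 2, and 1 rose and 11 fell without CP70 replicates 1 and 3, and after median centring none rose and 5 fell. Their median change was -0.19 log2 beside PXD101 and 0.23 without it. CCND2, the cyclin D2 that drives entry into S phase, fell by 0.50 ± 0.07 (SE) with no overlap, and CDKN2A, a cell cycle inhibitor, changed by -0.20 ± 0.07 without being called. Of 40 DNA repair genes 2 rose and 2 fell (5.0% each, against 7.47% and 5.19% of all genes); without CP70 replicate 2 the numbers were 6 and 5, without CP70 replicates 1 and 3 they were 2 and 10, and after median centring 8 fell. ERCC1, a subunit of the nuclease that acts in excision and crosslink repair, rose by 0.63 ± 0.07, with 10.50, 10.66 and 10.85 with decitabine, against 9.93, 10.07 and 10.16 without it. The mismatch repair gene PMS1 is uncertain: the probe set used here fell by 0.65 ± 0.08, while of its 5 probe sets 2 rose and 1 fell, and their mean changed by 0.07.

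Genes of the ATF4 stress response also rested on the untreated arrays. Of 35, 1 rose and 1 fell, their median change was 0.90 log2 beside PXD101 and -0.31 without it, and without CP70 replicates 1 and 3 10 rose. The list median lay at 9.55 to 10.34 with decitabine and at 8.85 to 10.97 without it, the highest in CP70 replicates 1 and 3. ATF5, a transcription factor of this response, rose by 0.89 ± 0.18 (SE) and PHGDH, which starts serine synthesis, fell by 0.67 ± 0.13, both with overlap; without CP70 replicates 1 and 3 PHGDH changed by -0.40. PPP1R15A, which restarts translation, changed by 1.16 ± 0.36 and missed the threshold (limma adjusted p = 0.0536). Sterol and fatty acid synthesis genes fell in 6 of 23 cases (26.1%) and none rose on the deposited scale; 2 rose and 6 fell without CP70 replicate 2, and 9 fell after median centring. INSIG1, which holds back the sterol sensor, fell by 0.65 ± 0.14, SREBF2, the sterol transcription factor, by 0.44 ± 0.10, DHCR7, which makes cholesterol in its last step, by 0.43 ± 0.08 and the fatty acid elongase ELOVL6 by 0.42 ± 0.10. Of these 4, DHCR7 alone was free of overlap, and INSIG1 and SREBF2 were not called without CP70 replicates 1 and 3 (limma adjusted p = 0.066 and 0.061).

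Matrix and mesenchymal genes moved both ways. Of 56, 15 were higher (26.8%, against 7.47% of all genes) and 10 lower (17.9%, against 5.19%), and 8 and 4 without overlap. LOXL1, which crosslinks elastin, rose by 2.27 ± 0.18 (SE), the collagenase MMP1 by 1.46 ± 0.15, COL1A1, a chain of type I collagen, by 1.20 ± 0.10 and the laminin chain LAMB3 by 0.85 ± 0.09. COL1A1 thus rose while COL3A1, another fibrillar collagen, fell, and neither overlapped. YAP and TEAD targets rose in 9 of 24 cases (37.5%) and fell in 3 (12.5%), or in 5 after median centring. CCN2, a matricellular growth factor formerly called CTGF, lay at 10.78, 11.37 and 11.47 with decitabine, against 7.55, 8.33 and 9.21 without it, and rose by 2.83 ± 0.17. CCN1 rose by 1.97 ± 0.17 and ANKRD1, a transcriptional cofactor of muscle, by 1.05 ± 0.13. Clustered protocadherins, adhesion proteins that give neurons their identity, had 5 falls and 1 rise among 26 measured genes (3 falls and 2 rises without CP70 replicates 1 and 3), where 5.19% and 7.47% of all genes were called. The falls included PCDHB14 (-1.34 ± 0.11), PCDHB2 (-0.50 ± 0.07) and PCDHB3 (-0.35 ± 0.08, but -0.14 and not called as the mean of its 3 probe sets), while PCDHB5 of the same cluster rose by 0.72 ± 0.14.

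The 3 DNA methyltransferase genes and the first 3 deacetylase genes, targets of the drugs, were not called by the probe sets used here. DNMT1, the maintenance methyltransferase, lay at 9.78, 9.83 and 10.02 with decitabine, against 9.43, 9.86 and 9.99 without it, a change of 0.09 ± 0.09 (SE; limma adjusted p = 0.622). The de novo methyltransferases DNMT3A (0.39 ± 0.17, adjusted p = 0.162) and DNMT3B (0.56 ± 0.27, adjusted p = 0.240) were not called by limma either, and both depended on the untreated arrays. Without CP70 replicate 2 they were called (0.57 and 0.87), and without CP70 replicates 1 and 3 their changes were 0.05 and -0.06. Of the 3 probe sets of DNMT3A 2 rose, and the mean of all 3 changed by 0.63 and was called. HDAC1, HDAC2 and HDAC3 changed by -0.12 ± 0.11, -0.10 ± 0.06 and -0.27 ± 0.09 (limma adjusted p = 0.568, 0.345 and 0.0586). Around them, 3 of 28 genes of the DNA methylation machinery rose and 4 fell, with 9 and 5 without CP70 replicate 2 and 1 and 4 without decitabine replicate 3. TET1, the dioxygenase that oxidises methylcytosine, lay at 7.33, 7.23 and 7.67 with decitabine and PXD101 and at 7.92, 7.59 and 7.31 with decitabine alone. It lay at 8.70, 9.10 and 8.86 with PXD101 and at 8.19, 8.66 and 8.36 in untreated CP70, so that all 6 decitabine arrays were lower, by 1.14 ± 0.13. IDH1, which makes the cosubstrate of the TET enzymes, fell by 0.47 ± 0.07, and UHRF2, a relative of the DNMT1 partner UHRF1, rose by 0.39 ± 0.08. The remodeller HELLS is uncertain: the probe set used here fell by 0.49 ± 0.10 with overlap, while of its 5 probe sets 1 rose and 2 fell, and their mean changed by -0.07 (limma adjusted p = 0.665). Of 18 histone deacetylases 1 rose (5.56%, against 7.47% of all genes) and 3 fell (16.7%, against 5.19%), with HDAC4 at -0.89 ± 0.10, HDAC9 at -0.55 ± 0.12 and SIRT5 at -0.37 ± 0.06. As the mean of all their probe sets HDAC9 changed by -0.22 and SIRT5 by -0.09, and neither was called (limma adjusted p = 0.0916 and 0.253).

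**Figure D3:**
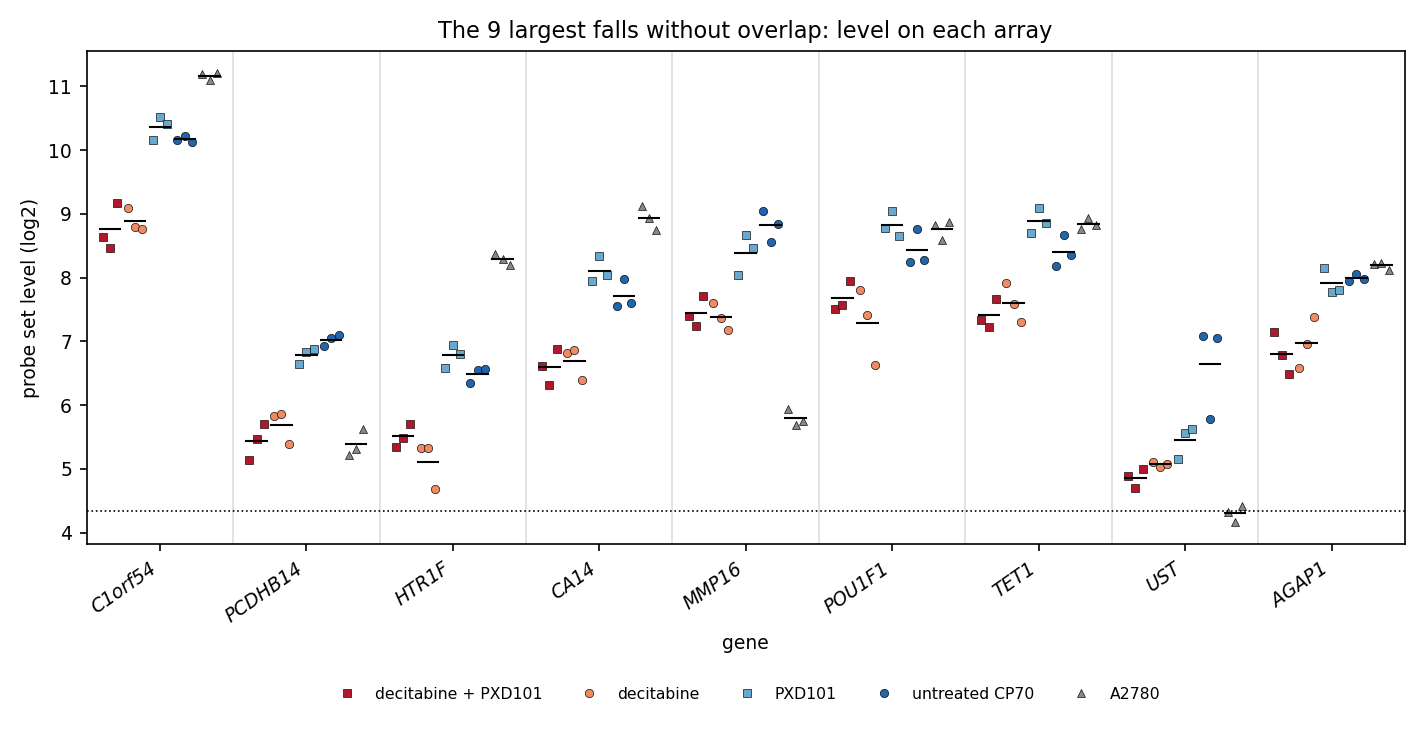
Level (log2) of the 9 genes with the largest fall among called genes without overlap, on every array, with groups, points, bars and dotted line as in the plot of the largest rises. The decitabine arrays lie below all CP70 arrays without decitabine, and no fall exceeds 1.45 log2.

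The largest falls were of about 1 log2 and were in genes above the low end of the scale. C1orf54 lay at 8.64, 8.46 and 9.17 with decitabine and PXD101 and at 9.10, 8.79 and 8.77 with decitabine alone. The levels were 10.16, 10.52 and 10.41 with PXD101 and 10.16, 10.22 and 10.14 in untreated CP70, and the fall was 1.45 ± 0.12 (SE), or 2.73-fold. PCDHB14 followed with a fall of 1.34, HTR1F, a serotonin receptor, fell by 1.32 ± 0.12, and CA14, a membrane-bound carbonic anhydrase, by 1.26 ± 0.13. MMP16, a membrane metalloprotease, fell by 1.19 ± 0.13, the pituitary transcription factor POU1F1 by 1.15 ± 0.18, TET1 by 1.14, and UST, which sulfates dermatan, by 1.08 ± 0.19. AGAP1, an activator of ARF GTPases, fell by 1.06 ± 0.14. The sides of UST lay close, with 5.11 as the highest value with decitabine and 5.16 as the lowest without it, and its change was -0.65 without CP70 replicates 1 and 3. Of the 440 falls without overlap, 5 (1.14%) had all 6 arrays without decitabine below the lower quartile of gene values. Among the 889 rises 159 (17.9%) did, and among all genes 21.5%. Genes that low have little room to fall, and the part of this in these shares was not tested.

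Size and chromosome went together among the rises. Of all genes with a chromosome, 3.53% were X-linked. The share was 7.76% (69 of 889) among the rises without overlap, 29.2% (26 of 89) among those of at least 4-fold and 62.5% (10 of 16) among those of at least 16-fold. Genes with all 6 arrays without decitabine below the lower quartile were 31 of these 89 (34.8%) and 9 of the 16, against 21.5% of all genes. Of the 440 falls, 13 (2.95%) were X-linked. These shares describe the called genes and were not tested, and the X-linked antigens listed above are part of them.

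**Figure D4:**
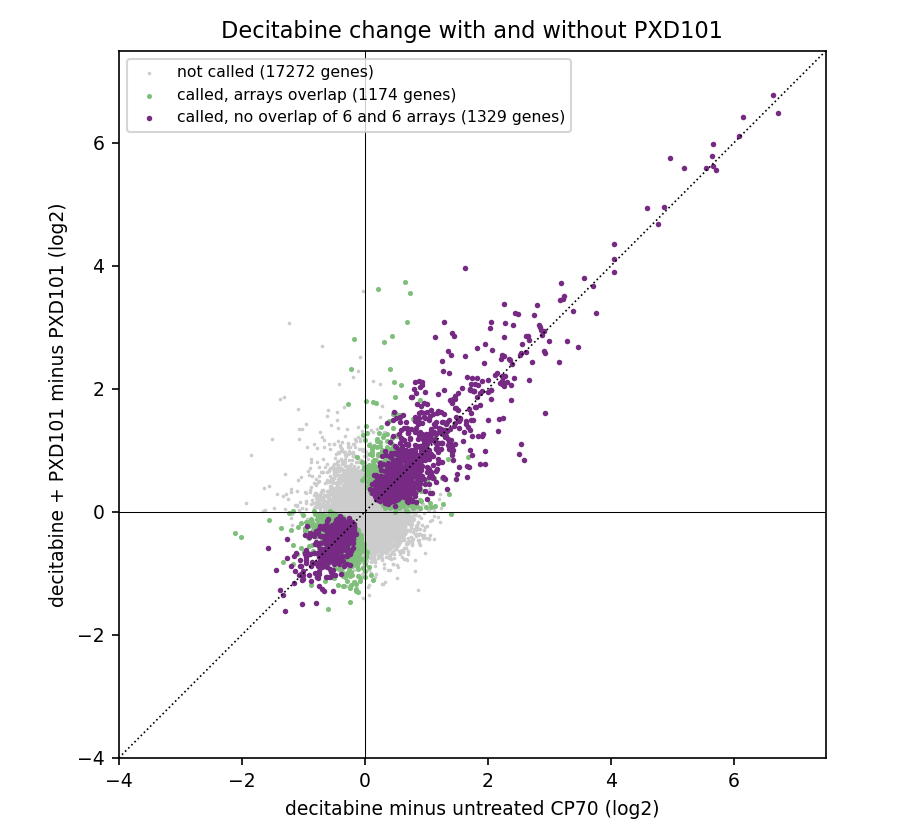
Change with decitabine beside PXD101 (vertical, log2) against the change without PXD101 (horizontal, log2) for 19775 genes; purple genes were called and did not overlap, green genes were called and overlapped, grey genes were not called, and the dotted line marks equal changes. The large rises lie along the line of equal change, and a group of green and grey genes lies above it near 0 on the horizontal axis.

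The effect of decitabine can be split into a comparison beside PXD101 (combined treatment minus PXD101) and one without PXD101 (decitabine minus untreated CP70). The changes in these comparisons share no array, but their limma tests do. Both tests took the variance of each gene from a fit to all treated and untreated CP70 arrays. Genes called in both are therefore not agreement between separate tests. The comparison beside PXD101 also sets 24 h of PXD101 against 48 h, which cannot be told apart from decitabine there. Any difference between the comparisons carries the same limit. Beside PXD101 limma called 1683 genes (8.51%), with 1046 rises (5.29%) and 637 falls (3.22%). Without PXD101 it called 1308 genes (6.61%), with 837 rises (4.23%) and 471 falls (2.38%). In both, 661 genes were called in the same direction and 2 in opposite directions, which is 39.3% of the calls with PXD101 and 50.5% of those without. Of the genes called with PXD101, 88.8% had the same sign without it, and of those called without it 92.4% had the same sign with it, where 53.4% of all genes shared a sign. Across all genes, which are not independent replicates, the changes correlated with Pearson's r = 0.542 and Spearman's rho = 0.162. A change of at least 2-fold was seen in both comparisons for 218 called rises and 11 called falls. Of the 89 rises of at least 4-fold without overlap, 63 differed between the comparisons by at most 0.5 log2. Both counts moved with single arrays. Beside PXD101 the calls were 3175 without CP70 replicate 2, an array that entered this comparison only through the variance. The calls were 785 without replicate 2 of the combined treatment, and 1073, 1071 and 1054 without PXD101 replicates 1, 2 and 3. Without PXD101 they were 4537 without CP70 replicate 2, 728 and 694 without CP70 replicates 1 and 3, and 804 and 806 without decitabine replicates 2 and 3.

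The test of the difference between these comparisons called 2 genes (0.0101%), DPPA4 and TPT1-AS1, with 3178 genes (16.1%) at an unadjusted p under 0.05. DPPA4, a chromatin protein of pluripotent cells, lay at 5.81, 5.78 and 5.86 with decitabine and PXD101 and at 4.87, 4.60 and 4.45 with decitabine alone. It lay at 3.15, 3.23 and 3.22 with PXD101 and at 3.19, 3.42 and 3.25 in untreated CP70. The rise was thus 2.62 beside PXD101 and 1.36 without it, a difference of 1.26 ± 0.16 (SE; limma adjusted p = 0.0471). TPT1-AS1, an RNA antisense to TPT1, changed by 0.52 beside PXD101 and by -0.53 without it, and the difference was 1.04 ± 0.13 (limma adjusted p = 0.0471). Its main change was therefore 0.00, and of its 5 probe sets 1 fell. The interaction count was 0 in 10 of the 12 fits without a single array, 1 without decitabine replicate 1 and 3882 without CP70 replicate 2.

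**Figure D5:**
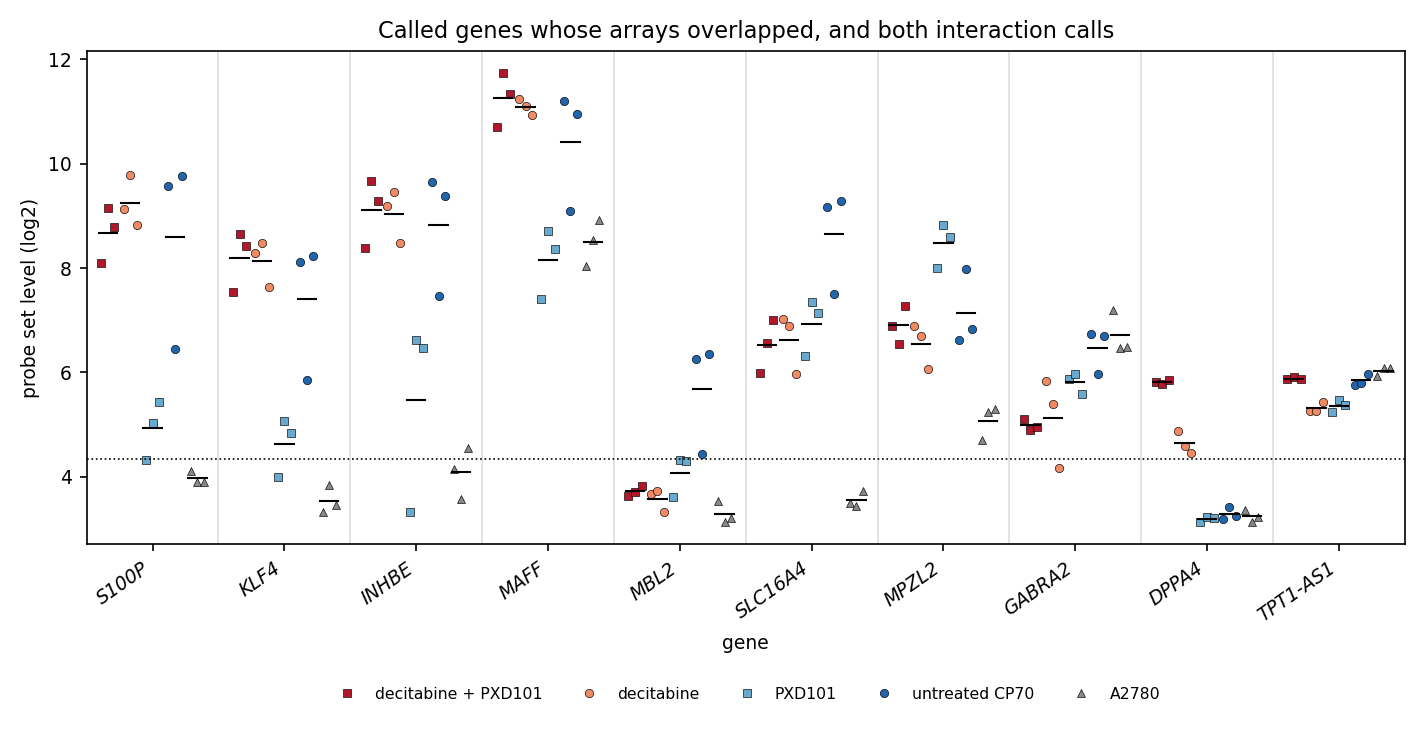
Level (log2) on every array of the 4 largest called rises (left) and 4 largest called falls (middle) whose arrays overlapped, and of both genes called for the interaction (right), with groups, points, bars and dotted line as in the plot of the largest rises. S100P, KLF4, INHBE and MAFF are as high in 2 of the 3 untreated CP70 arrays as with decitabine and lower in the PXD101 arrays.

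Called genes with overlap are described next, by their largest changes. S100P, a calcium-binding protein, lay at 8.10, 9.15 and 8.78 with decitabine and PXD101 and at 9.14, 9.78 and 8.83 with decitabine alone. It lay at 4.33, 5.04 and 5.44 with PXD101 and at 9.56, 6.45 and 9.77 in untreated CP70, where replicates 1 and 3 were above 5 of the 6 decitabine arrays. Its main change of 2.20 ± 0.49 (SE) joined a change of 3.74 beside PXD101 with one of 0.65 without it. The transcription factor KLF4 (2.15 ± 0.38), INHBE, a subunit of activins (1.92 ± 0.55), and the stress factor MAFF (1.89 ± 0.34) likewise had their lowest mean with PXD101. INHBE was called with a limma adjusted p = 0.0389 that exceeded 0.05 in 6 of the 12 fits without a single array. Among the falls MBL2, a lectin of the complement system (-1.23 ± 0.28), and SLC16A4, a monocarboxylate transporter family member (-1.22 ± 0.32), were high in the same CP70 replicates. SLC16A4 was not called in 7 of the 12 fits without a single array, and without CP70 replicates 1 and 3 it changed by -0.64 (limma adjusted p = 0.175) and MBL2 by -0.61. MPZL2, an adhesion protein (-1.08 ± 0.24), and the GABA receptor subunit GABRA2 (-1.08 ± 0.24) were also called with overlap. GABRA2 was not called without CP70 replicates 1 and 3 (limma adjusted p = 0.0659). In a fit without a PXD101 term S100P, KLF4, INHBE, MBL2, SLC16A4 and MPZL2 were not called (limma adjusted p of 0.0507 to 0.194). Overlap often rested on 1 array. Of the called genes with overlap, 414 of 588 rises and 378 of 586 falls no longer overlapped once a certain single array was left out, most often decitabine replicate 3 (86 rises and 110 falls).

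The same 12 arrays also divide into 6 with PXD101 and 6 without it, which is equal in size but not in its terms. CP70 replicate 2 was on the side opposite to the PXD101 arrays it resembled, whereas for decitabine it was on their side. By limma no gene was called for PXD101 (0 genes, 0.0%), with 3303 genes (16.7%) at an unadjusted p under 0.05, and 3847 were called without CP70 replicate 2. The 6 and 6 arrays did not overlap for 83 genes (0.42%), 33 higher (0.167%) and 50 lower (0.253%) with PXD101. For decitabine there were 1395 such genes (7.05%). The PXD101 overlap was not counted without CP70 replicate 2, so these numbers do not rank the 2 drugs.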

How the data were processed

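RNA was amplified and labelled with biotin, per the labels' protocols. The authors deposited 1 table of log2 values for 54675 probe sets on 15 arrays; R 2.10.1 and affy stand in the submitters' processing notes, and the normalization is not given in the sources used here. Columns were matched to samples by their identifiers. Of the probe sets, 41097 had 1 gene symbol, 1801 several and 11777 none in the table used here; 62 were controls. For each gene the probe set of highest mean over the 15 arrays was kept (19775 genes). Limma 3.58.1 (R 4.3.3) was fitted to the deposited log2 values of the 12 CP70 arrays with 4 group means, with no pseudocount and no filter, and tested on simulated data. Rank product, named in the design text, was computed with 100 permutations (numpy 2.4.6, pandas 2.3.3 and Python 3.11.15; exact tests with scipy 1.17.1, figures with matplotlib 3.10.9). Exact tests had 924 splits. The number of arrays limits the precision.

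Named genes were the 12 largest rises, the 10 largest falls, the 8 widest gaps upwards and the 4 downwards among called genes without overlap, the 4 largest rises and falls with overlap, up to 4 of each of 27 lists by smallest p, the interaction calls and the drug targets; 1 gene that this rule names among the falls is not reported here. The comparison and the lists (933 genes, 92 not analysed here) were chosen with earlier results of these data known. Replicate numbers did not pair arrays. Alternatives were other models, probe set rules, scalings, weights, rank product and fits without single arrays; list counts without doubted arrays and under other scalings, and the overlap counts without CP70 replicates 1 and 3, were added after seeing the data.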

Additional observations from a re-analysis of the deposited data

Results flagged for a closer look

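Checks of 258 sets of 6 arrays, among named genes, found single arrays that stood apart by Dixon's criterion, which chance meets in about 1 set in 20. Without decitabine, the lowest arrays were PXD101 replicate 3 for GPX1 (3.87 log2) and HDAC4 (6.29), PXD101 replicate 1 for IFIH1 (5.26), PXD101 replicate 2 for IGFBP3 (10.20), and CP70 replicate 2 for ZFAT (6.24) and BEX5 (3.28); CP70 replicate 2 was the highest for DPPA4 (3.42). With decitabine, decitabine replicate 3 was the lowest for HTR1F (4.68) and the highest for SREBF2 (7.68) and DNMT3A (7.41), and replicate 1 of the combined treatment was the lowest for ATF5 (8.37). The decitabine change of DPPA4 was larger beside PXD101 than without it by 1.26 log2 and that of TPT1-AS1 by 1.04 (limma adjusted p = 0.0471 for both).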

How the results depend on the processing

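Of 119 called named genes, 94 kept their call in each of 21 alternatives, 112 did so without any 1 array, and 1 reversed: PMS1 changed by 0.072 as the mean of its probe sets. Rises and falls (1477 and 1026) were 898 rises among genes above the median level, 2357 and 2186 over every probe set, 3054 and 2528 with array weights, 315 and 23 at a minimum of 2-fold, 758 and 574 by rank product, and 2144 falls after median centring. Leaving out 1 array gave 1119 to 2278 rises, 652 to 1593 falls, 945 to 1045 higher and 492 to 671 lower genes without overlap. It gave 0 to 3882 interaction calls, 0 to 3847 PXD101 calls, 785 to 3175 calls for decitabine beside PXD101 and 694 to 4537 without PXD101; the upper ends, except for genes without overlap, came without CP70 replicate 2. Without CP70 replicates 1 and 3 decitabine had 2880 calls beside PXD101 and 656 without PXD101, 1646 higher and 1616 lower genes did not overlap (6 against 4 arrays) and the interaction had 0 calls. Among genes above the median level 504 were higher without overlap. The interaction (2 calls) had 0 with the mean of all probe sets, 6 over every probe set, 5047 with array weights and 4 after quantile normalization. With the replicate number as a block, 1251 genes rose, 772 fell and the interaction had 0 calls; same-numbered arrays deviated together in no steady way (r of -0.38 to 0.49), so the numbers gave no pairing. The causes of these shifts were not tested. Array weights gave CP70 replicate 2 a weight of 0.168. Changes near the low end of the scale may be understated, which was not tested, and 3 replicates per group limit what each of these comparisons can call.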
